A study of Homo sapiens with 12 samples.

Results

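The main KRAB zinc finger gene clusters of human chromosome 19 were taken as 4 intervals of the hg19 assembly, and every H3K27ac peak whose midpoint lay in one of them was counted as a member. The first, called 19p12 here after the band that holds most of it, was chr19:19700000-24400000 (4.7 Mb). The others were chr19:36600000-38300000 in 19q13.12 (1.7 Mb), chr19:52400000-53900000 in 19q13.41 (1.5 Mb, reaching the start of 19q13.42) and chr19:57600000-58900000 in 19q13.43 (1.3 Mb). Together the 4 intervals held 2479 of the 667017 peaks in the 9 peak lists: 926 in 19p12, 383 in 19q13.12, 599 in 19q13.41 and 571 in 19q13.43. The rest of chromosome 19, the reference for most comparisons, held 17697 peaks over 46.5 Mb. Other zinc finger gene clusters lie in that rest as well, so the comparison does not set zinc finger genes against other genes alone.

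KRAB zinc finger proteins are DNA-binding repressors. Their KRAB domain recruits TRIM28 (KAP1) and the methyltransferase SETDB1, which place H3K9me3 on the bound DNA, in many cases transposable elements. The genes arose by repeated duplication and stand in tandem arrays. Their own bodies, mainly the exons that encode the zinc fingers, are known to carry H3K9me3 while their promoters can be active. H3K27ac, the mark measured here, is found at active promoters and enhancers. In the GRCh38.p14 gene table of RefSeq, used for names and gene order only, 265 of the 1451 protein-coding genes of chromosome 19 (18.3%) carried a zinc finger symbol. Of these genes, 213 stood in 18 runs of at least 5 neighbours. A run of 27 genes goes from ZNF737 to ZNF681 and includes ZNF91, a repressor of SVA elements. A run of 24 genes from ZNF565 to ZNF793 includes ZNF382 and ZNF568. A run of 10 genes from ZNF766 to ZNF83 includes ZNF808, and a run of 8 genes from ZNF606 to ZNF8 includes ZNF274, which binds the ends of zinc finger genes. No gene was placed at a peak, and the sequences under the peaks were not analysed here, because the genome and gene models used by the peak lists (hg19) were not at hand.

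The lists came from native, unfixed-chromatin ChIP-seq on MDA-MB231, a basal-like human breast cancer cell line, with 0.25 to 0.5 M cells per library. All groups were infected with lentivirus 96 h before chromatin was prepared: Control with the EV-control virus, CDK19KD with a virus carrying an shRNA against CDK19, and CDK8KD with one against CDK8. CDK8 and CDK19 are paralogous kinases of the Mediator complex. Each group had 3 libraries. The knockdown itself could not be checked in peak lists, the read depth is unknown, and the labels do not say that replicates were separate cultures, so every p-value here measures only the spread between these libraries.

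The clusters held fewer H3K27ac peaks per megabase than the rest of chromosome 19, and less of their length lay under a peak. In the Control libraries the clusters held 25.2, 30.8 and 38.04 peaks per Mb and the rest 35.3, 38.005 and 48.3. In the CDK19KD libraries the clusters held 26.5, 27.8 and 30.9 and the rest 36.9, 45.1 and 45.5. In the CDK8KD libraries the clusters held 25.7, 31.6 and 32.9 and the rest 35.3, 47.8 and 48.2. Each library's clusters lay below its own rest, although the ranges over libraries overlapped. The mean density was 29.9 ± 4.12 peaks per Mb in the clusters (SD, n = 9) and 42.3 ± 5.74 in the rest, a log2 ratio of -0.50 ± 0.12 and a ratio of 0.709. It was lower in 9 of 9 libraries (exact two-sided sign-flip permutation test on the log2 ratios, p = 0.00391, the smallest that 9 libraries allow). After Benjamini-Hochberg adjustment over 4 measures the p was 0.00781. That test, like the later sign-flip tests, took the 9 libraries as separate, although libraries of the same replicate number deviated together from their group means. Averaged per replicate number, the log2 ratio stayed at -0.50, with an exact sign-flip p of 0.25, the smallest that 3 numbers allow.

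The covered share, the percent of the sequence under a peak, was 10.8 ± 1.51% in the clusters and 18.4 ± 3.997% in the rest (SD, n = 9). In the clusters it was 10.1, 10.4 and 14.3% in Control, 9.90, 9.35 and 10.6% in CDK19KD, and 9.99, 10.7 and 12.2% in CDK8KD. The third Control library stood above the other 8. The log2 ratio to the rest was -0.75 ± 0.21, a ratio of 0.595, and was below 0 in 9 of 9 libraries (exact p = 0.00391, adjusted 0.00781). Chromosome 19 is densely marked, and against the other chromosomes both directions turned for the pooled clusters. They had more peaks per Mb (log2 ratio 0.28, exact sign-flip p = 0.00391) and a larger covered share (0.16, exact sign-flip p = 0.00781). Peak-free stretches were kept in the length of the other chromosomes, unlike the longest one of chromosome 19. Keeping that one moved the log2 share ratio to the rest from -0.75 to -0.65. For the other chromosomes this effect was not tested. For the pooled clusters the lower values thus belong to the comparison within chromosome 19. The 19p12 cluster alone had a smaller covered share than the other chromosomes in every library. In Control its share was 6.37, 7.07 and 9.60% against 8.82, 10.6 and 10.5%. Its density was also lower, except in the third Control library (28.7 against 28.4 peaks per Mb). The share of 19q13.41 and 19q13.43 was larger in every library, and that of 19q13.12 varied in direction. These differences by interval were not tested.

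Peak strength went the other way. Strength is given as the percentile of a peak's −log10 p within its own list, so that lists of different lengths can be set side by side. The median cluster peak stood at percentile 80.0, 75.7 and 56.5 in Control, 79.1, 79.2 and 72.9 in CDK19KD, and 77.1, 72.3 and 70.7 in CDK8KD. The median peak of the rest stood between 51.9 and 67.0. The difference was 14.5 ± 7.17 percentile points (SD, n = 9), higher in 8 of 9 libraries (exact sign-flip permutation test, p = 0.00781, adjusted 0.0104). The exception was the third Control library, where the cluster median lay 2.35 points below the rest (a difference of -2.35); without that library the mean difference was 16.6. The authors' fold enrichment had a mean of the library medians of 3.98 ± 0.782 in the clusters and 3.14 ± 0.385 in the rest.

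The clusters were also over-represented among the 5000 strongest peaks of the lists. Among the 5000 strongest peaks of a list, 31 to 61 lay in the clusters (median 41). They made up 0.869% of those peaks on average against 0.376% of whole lists. The ratio of these shares had a mean of 2.26 (1.89 to 3.13 over libraries), against 1.09 for the rest of chromosome 19 (0.743 to 1.38), and was higher for the clusters in 9 of 9 libraries (exact sign-flip permutation test, p = 0.00391). Among the 1000 strongest peaks, 0 to 20 lay in the clusters, with a median of 5 and a mean share of 0.611%, which was not tested. Libraries disagreed here. The share lay below that of the library's own list in Control replicates 1 and 2, CDK19KD replicate 1 and CDK8KD replicate 1, and above it in the others. The largest numbers, 20 and 12, were in CDK8KD replicates 2 and 3.

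The lower density depended on how many weak peaks were counted. With peaks of −log10 q of at least 5 alone, the log2 density ratio to the rest was -0.017 (exact sign-flip permutation p = 0.844). With the 20000 strongest peaks of each list it was 0.049 (exact p = 0.152). The lower covered share kept its direction and its side of the threshold under both settings. The median width gave no call over all peaks, 3022 ± 330 bp in the clusters and 2926 ± 395 bp in the rest (log2 ratio 0.051 ± 0.087, SD, n = 9, exact p = 0.0977). Among strong peaks it gave one, with cluster peaks narrower: the log2 ratio was -0.45 with −log10 q of at least 5 and -0.49 with the 20000 strongest (exact p = 0.00391 in each).

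The distribution of widths shows where the clusters and the rest parted. Peaks of 3 to 6 kb made up 39.7 ± 7.60% of cluster peaks and 27.2 ± 5.19% of peaks in the rest (SD, n = 9). The difference was 12.5 percentage points, and the share was higher in the clusters in 9 of 9 libraries (exact sign-flip permutation p = 0.00391, adjusted 0.00651 over 5 width classes). Their number in the clusters was nearly constant, 116, 110 and 101 in Control, 116, 103 and 100 in CDK19KD, and 115, 104 and 97 in CDK8KD, while all cluster peaks ranged from 232 to 350. The number of cluster peaks thus varied over libraries mainly outside this width class.

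Wide peaks made up a smaller share in the pooled clusters than in the rest. Peaks of 6 to 10 kb made up 8.72 ± 1.21% of cluster peaks and 13.2 ± 1.68% in the rest, lower in 9 of 9 libraries (exact permutation test, adjusted p = 0.00651). Peaks of 10 kb or more made up 3.58 ± 1.06% against 8.68 ± 3.03%, again lower in 9 of 9 (adjusted p = 0.00651). The 6 to 10 kb class was not low in every cluster: its mean share was 13.5% in 19q13.41, 9.16% in 19q13.12, 8.18% in 19q13.43 and 5.70% in 19p12. The widest cluster peak of a library measured 27376 to 40348 bp, and the widest peak of the rest 30297 to 104270 bp. Peaks under 1 kb (17.1 ± 6.29% against 20.02 ± 3.67%, exact adjusted p = 0.0537) and of 1 to 3 kb (30.9 ± 3.15% against 31.0 ± 2.81%, exact p = 0.953) did not pass the test. The limits of these classes were set with the data in view.

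The higher strength of cluster peaks was present at equal width. Cluster peaks of 3 to 6 kb stood at a median percentile of 87.3 ± 1.59 and those of the rest at 74.7 ± 3.16, a difference of 12.6 ± 3.51 (higher in 9 of 9 libraries, exact permutation test, adjusted p = 0.00977). For 6 to 10 kb the difference was 7.55 (higher in 9 of 9, exact adjusted p = 0.00977), and for 10 kb or more it was 2.77 (8 of 9, exact adjusted p = 0.0146). For 1 to 3 kb the percentiles were 52.7 and 41.9 (8 of 9, exact adjusted p = 0.0146). Under 1 kb they were 18.4 and 21.2, with no call (exact p = 0.188).

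**Figure D1:**
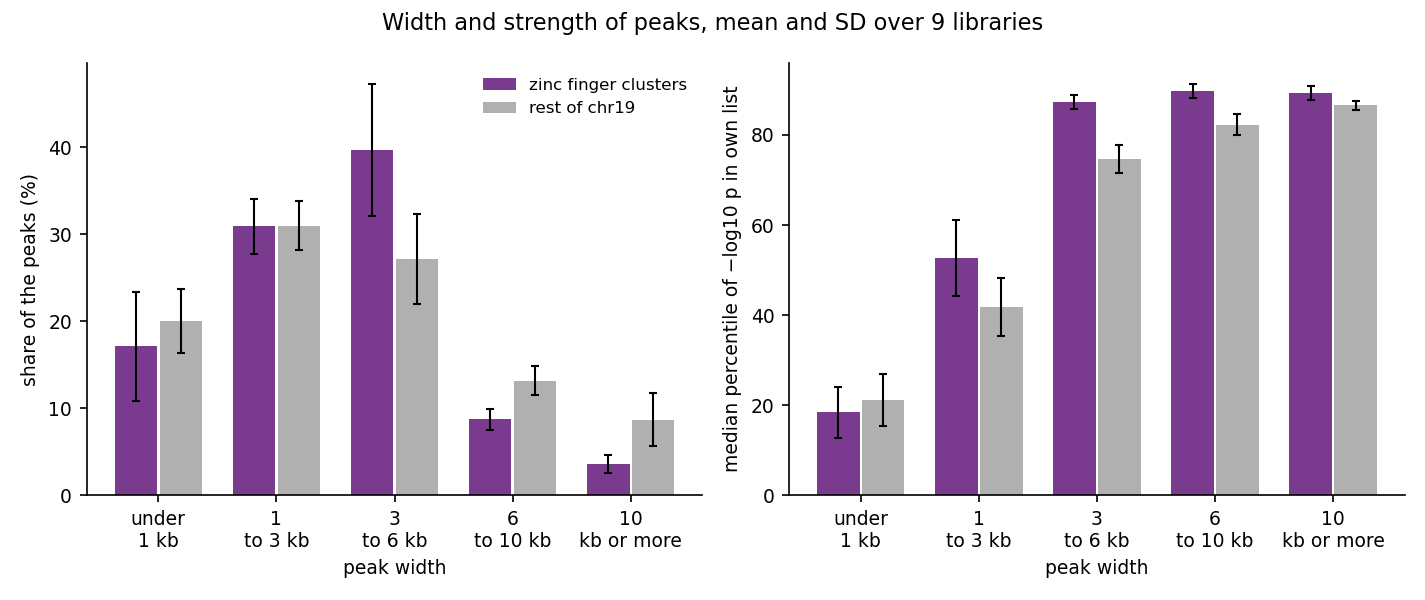
Share of the peaks in each of 5 width classes (left) and median percentile of −log10 p of those peaks (right), in the clusters and in the rest of chromosome 19; bars are means and error bars 1 SD over 9 libraries. The class of 3 to 6 kb holds 39.7% of cluster peaks against 27.2% in the rest, at a mean percentile of 87.3 against 74.7.

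The 4 intervals differed from each other more than their pooled value shows. The 19p12 cluster, with ZNF91, had the fewest peaks, a mean of 21.9 per Mb and a covered share of 7.15%, which were 0.518 and 0.392 times the values of the rest (log2 -0.95 ± 0.17 and -1.35 ± 0.24). The 19q13.12 cluster had 25.03 peaks per Mb and 9.57% covered, 0.595 and 0.527 times the rest (log2 -0.75 ± 0.14 and -0.92 ± 0.26). Both were lower in every library (exact sign-flip permutation test, adjusted p = 0.00781 for each of the 4 values, over 12 tests). For 19q13.12 the lower density was lost among strong peaks, at a log2 ratio of -0.15 with −log10 q of at least 5 and -0.050 with the 20000 strongest.

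The 2 clusters nearest the end of the long arm lay closer to the rest of the chromosome. The 19q13.41 cluster had 44.4 peaks per Mb and 19.01% covered, and neither differed from the rest by the test (log2 0.071 and 0.065, exact adjusted p = 0.197 and 0.430). Among strong peaks both were higher there, density at log2 0.74 and 0.84 and covered share at 0.39 and 0.43 with the 2 settings. The 19q13.43 cluster had 48.8 peaks per Mb, 1.15 times the rest (log2 0.20 ± 0.13, higher in 8 of 9 libraries, exact adjusted p = 0.0134). Its covered share was 16.4%, 0.890 times the rest (log2 -0.17 ± 0.16, exact adjusted p = 0.0313); this direction turned among strong peaks, to 0.070 and 0.14. Between intervals, every pair differed in density and in covered share (exact sign-flip permutation tests over 18 comparisons, adjusted p = 0.00502, except the density of 19q13.41 against 19q13.43 at 0.0220).

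Widths ordered the intervals differently. The mean of the median widths was 3403 bp in 19q13.41, 3351 bp in 19q13.12, 2863 bp in 19q13.43 and 2677 bp in 19p12. Neighbours in this order that did not differ by the test were 19q13.41 and 19q13.12 (exact adjusted p = 0.672), and 19q13.43 and 19p12 (0.0662). Against the rest, peaks were wider in 19q13.12 (1.15 times) and 19q13.41 (1.17 times, exact adjusted p = 0.00781 for each) and narrower in 19p12 (log2 -0.13 ± 0.12, 0.0234). For both wider clusters the direction turned among strong peaks, to log2 -0.38 and -0.44 in 19q13.12 and -0.34 and -0.41 in 19q13.41. The 3 to 6 kb class held 45.9% of peaks in 19q13.12, 41.1% in 19q13.41, 37.7% in 19q13.43 and 37.6% in 19p12. Median strength lay above the rest by 23.7 ± 5.89 percentile points in 19q13.41, 21.8 ± 5.36 in 19q13.12, 17.3 ± 7.49 in 19q13.43 and 5.64 ± 8.37 in 19p12, in 9, 9, 9 and 7 of 9 libraries.

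**Figure D2:**
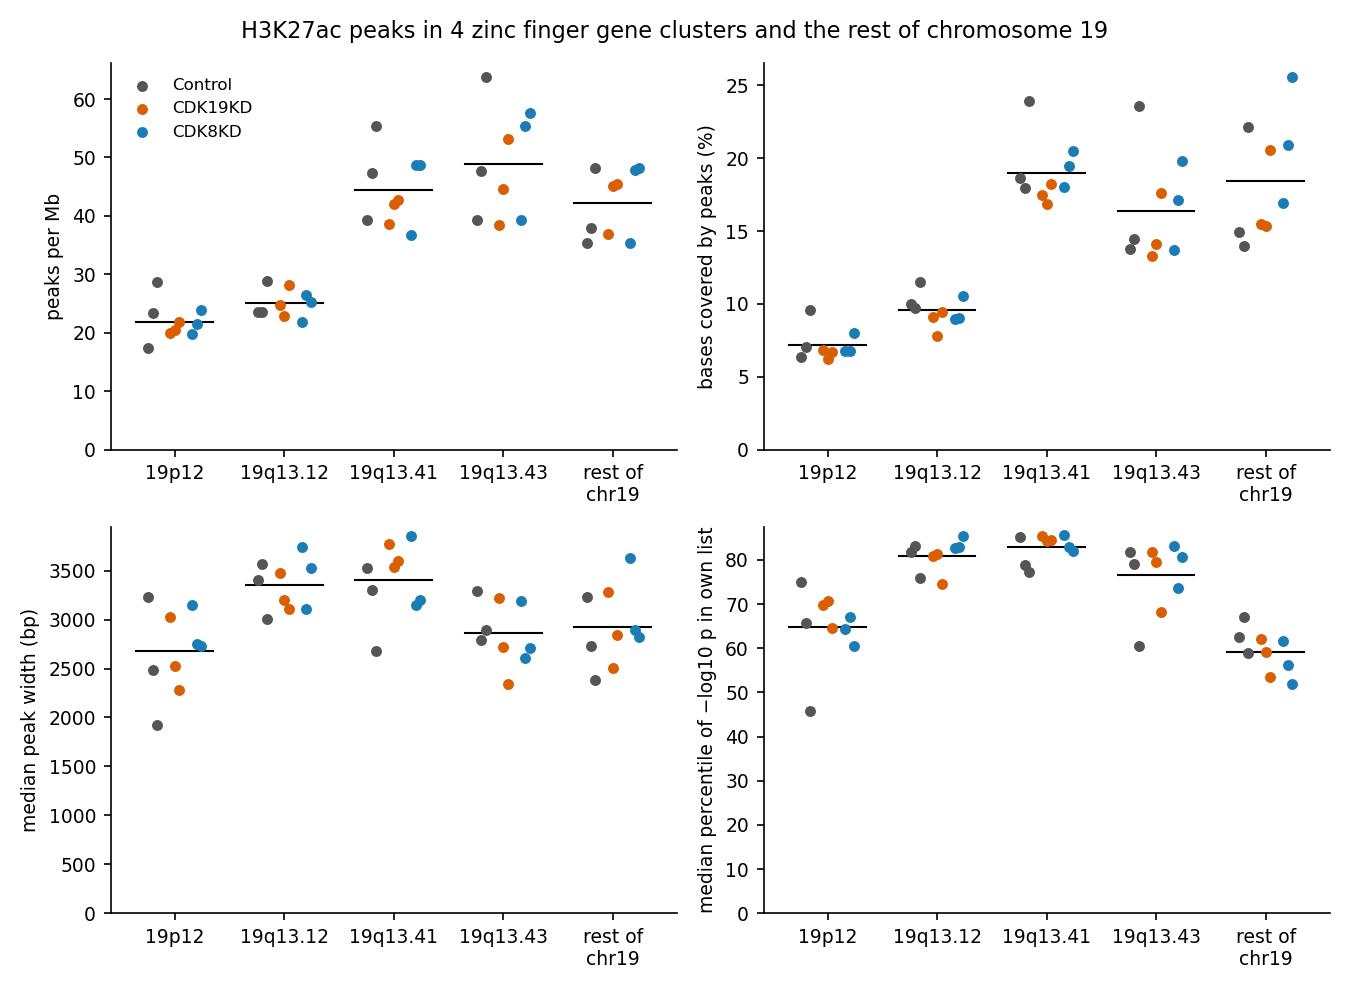
Peaks per Mb, percent of bases covered by peaks, median peak width in bp and median percentile of −log10 p within the own list, for each of the 4 clusters and the rest of chromosome 19; each point is 1 library, coloured by group, and the line is the mean of 9 libraries. Density and covered share are lowest in 19p12 (means of 21.9 per Mb and 7.15%), and the mean percentile of each cluster lies above that of the rest.

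Along the clusters the peaks were spread unevenly. In 100 kb bins, 15 of the 47 bins of 19p12 (31.9%) held no peak in any library, and the other 3 intervals had no such bin. Over the pooled clusters this was 16.3% of 92 bins, against 62 of 466 (13.3%) in the rest. Together, 13 of the 92 cluster bins (14.1%) had a mean covered share of at least 20%, against 186 of 466 (39.9%) in the rest. By interval these were 3 of 47 in 19p12 (6.38%), 1 of 17 in 19q13.12 (5.88%), 6 of 15 in 19q13.41 (40%) and 3 of 13 in 19q13.43 (23.1%). The median bin was covered to 5.92% in 19p12, 7.63% in 19q13.12, 18.9% in 19q13.41, 15.4% in 19q13.43 and 14.8% in the rest. The fullest bin of each interval reached 43.1% (chr19:23700001-23800000), 38.8% (chr19:36600001-36700000), 54.2% (chr19:53100001-53200000) and 36.4% (chr19:58300001-58400000).

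The longest stretch of the chromosome without a peak in any list, chr19:24289609-27738337, spanned 3.45 Mb. It begins inside the 19p12 interval, near its end. The part inside stayed in the length and bins of 19p12. The part beyond was left out of the rest, as were the bins of the rest that touched it. The longest stretch lying wholly within an interval was chr19:22049494-23423007 in 19p12, at 1374 kb or 29.2% of that interval. The longest in the rest was 1036 kb. How much of these stretches reads could be placed in was not tested. The hg19 sequence was not at hand, so gaps in the assembly could not be told from sequence without peaks. The treatment of reads that match several places is also not given in the sources used here, and zinc finger genes are near copies of each other. The longest peak-free stretches of the other intervals were 128 kb (chr19:53702157-53830251), 90.2 kb (chr19:37571781-37661974) and 88.7 kb (chr19:58516296-58605040).

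**Figure D3:**
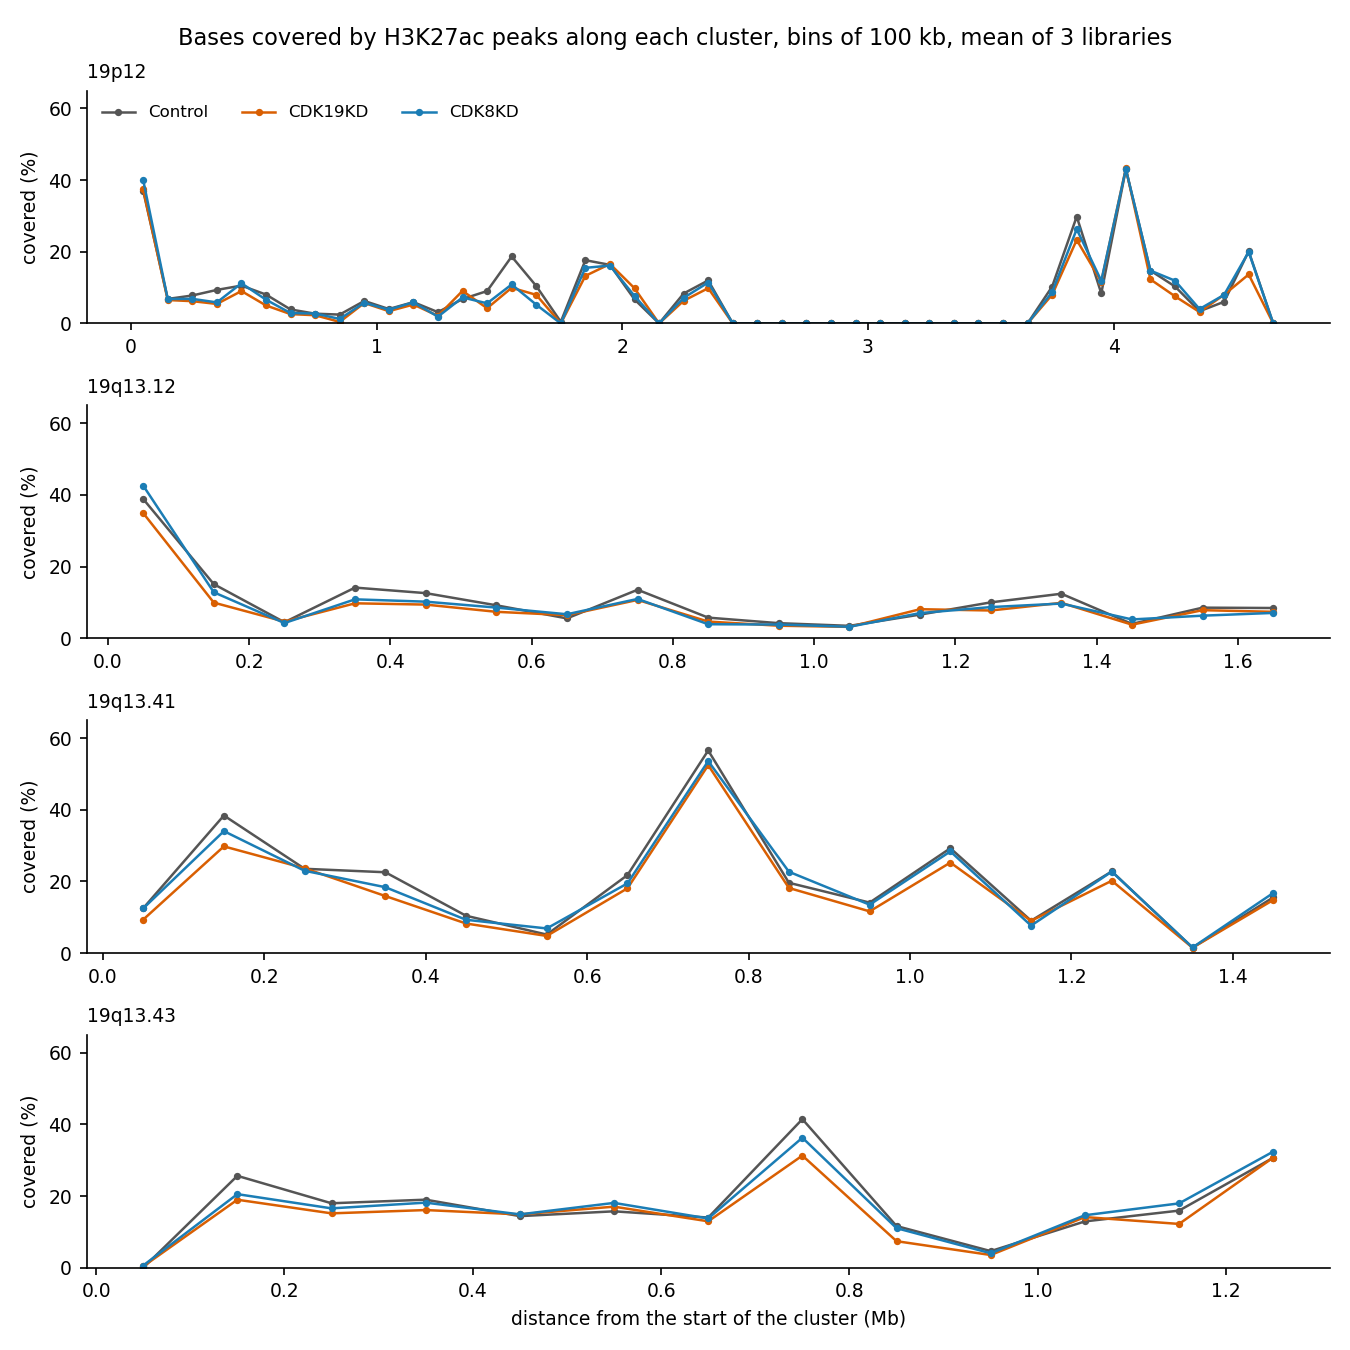
Percent of bases covered by peaks in bins of 100 kb along each cluster, by distance from the start of the cluster in Mb; each line is the mean of the 3 libraries of Control, CDK19KD or CDK8KD. The 3 lines follow the same course, and in 19p12 they stay at 0 through the stretch of 1374 kb without a peak.

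Joining overlapping peaks over the 9 lists gave 444 regions in the clusters, of which 176 (39.6%) were held by 9 of 9 libraries and 160 (36.04%) by 1 library. In the rest the shares were 36.4 and 32.7% of 2734 regions, and over all 120387 regions 28.3 and 38.5%. The third Control library alone accounted for 75 of the 160 single-library regions, and the other libraries for 2 to 19 each. Regions held by every library had a median width of 5657 bp in the clusters and 8281 bp in the rest. They numbered 13.0 per Mb in 19p12, 16.5 in 19q13.12, 30 in 19q13.41 and 32.3 in 19q13.43, against 21.4 in the rest. Their median spacing was 42.9, 52.2, 28.7 and 24.3 kb in the same order, and 27.6 kb in the rest.

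**Figure D4:**
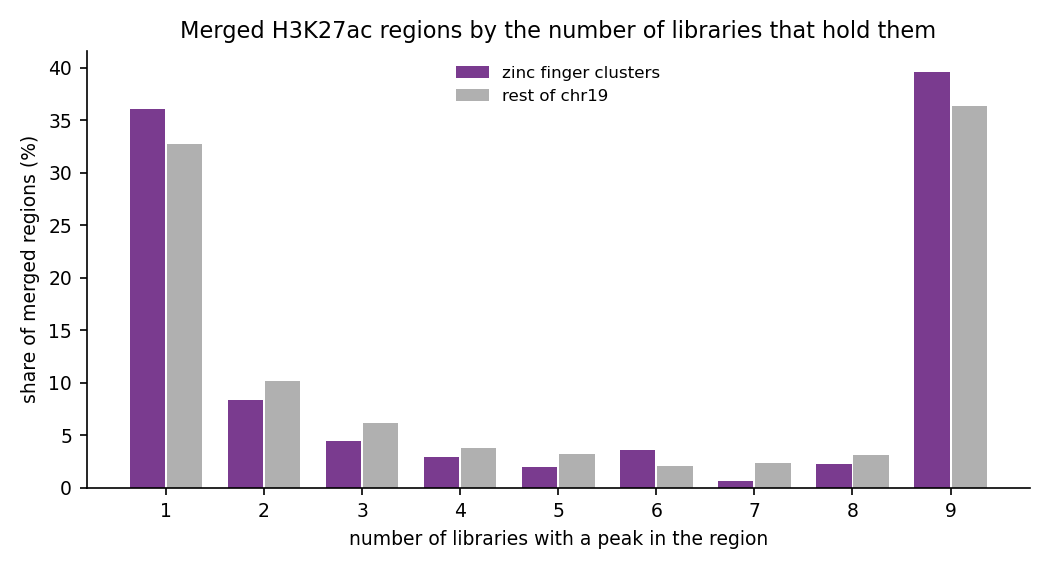
Share of merged regions, in percent, by the number of libraries with a peak in the region, for the clusters and the rest of chromosome 19. In both, most regions lie at the 2 ends, and in the clusters 39.6% were held by 9 libraries and 36.04% by 1.

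A few wide domains stood among the mostly compact regions. The widest by mean covered length was chr19:23702595-23747169 in 19p12, 44575 bp. Peaks covered 38967, 40408 and 40193 bp of it in Control, 40550, 38758 and 37375 bp in CDK19KD, and 41413, 37920 and 33034 bp in CDK8KD, with 2 peaks in every library. The groups overlapped, and the lowest value was the third CDK8KD library. In 19q13.41 the region chr19:53157613-53199940 had 27955 to 39880 bp covered, and chr19:52587416-52608081 was a single peak of 15891 to 20666 bp in each library. By contrast, chr19:52690638-52725955 varied from 5152 to 34954 bp, with its lowest value in CDK8KD replicate 1 and its highest in Control replicate 3.

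In 19q13.43 the widest region, chr19:58301686-58343806, had 16517 to 40348 bp covered, as 1 peak in Control replicate 3 and 3 to 6 peaks in the others. In 19q13.12 the widest was chr19:36615736-36642350, with 15256 to 25558 bp covered. Regions at an interval's edge also ranked among the widest: chr19:19696762-19731140 crosses the start of the 19p12 interval and chr19:58887751-58909412 the end of the 19q13.43 interval. In each list 3 peaks crossed an edge.

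The 2 strongest regions of each interval were 4133 to 7756 bp wide. The strongest, chr19:20601811-20609566 in 19p12 (7756 bp), had a mean percentile of 98.9. Its −log10 p, as the authors give it, was 25.8, 10.7 and 25.2 in Control, 31.2, 15.9 and 43.7 in CDK19KD, and 26.3, 18.8 and 29.1 in CDK8KD. The second library of each group had the lowest value, and the groups overlapped. In 19q13.41 the strongest was chr19:52897757-52904306 (mean percentile 98.2), in 19q13.12 chr19:37405417-37410852 (97.2), and in 19q13.43 chr19:57898951-57904716 (97.1). The runner-up of 19q13.12, chr19:37567019-37571780 (97.1), ends where the longest peak-free stretch of that interval begins.

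Over all peaks, no measure of the clusters differed between Control, CDK19KD and CDK8KD after adjustment over the 5 group tests. Control clusters had a mean of 31.3 ± 6.43 peaks per Mb, CDK19KD 28.4 ± 2.23 and CDK8KD 30.1 ± 3.88 (SD, n = 3), and the groups overlapped (9.57% of the variance between groups, exact permutation p = 0.807). The covered share was 11.6 ± 2.33, 9.96 ± 0.649 and 11.0 ± 1.12% (21.8% of variance, exact p = 0.468, and 0.167 with replicate numbers as blocks). Within replicate numbers CDK19KD was the lowest group in 3 of 3. The median width was 2946 ± 453, 3036 ± 236 and 3086 ± 400 bp (3.48% of variance, exact p = 0.896). Replicate numbers held more of the variance than the groups, 73.4% for density and 84.1% for width (exact p = 0.00714 and 0.00357). When each list was cut to its 20000 strongest peaks, 63.9% of the variance in median width lay between groups (exact permutation p = 0.0179, not adjusted). With −log10 q of at least 5 the value was 66.8%, which did not pass (exact permutation p = 0.0679).

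Relative to the rest of chromosome 19, the covered share of the clusters differed between groups before adjustment only. The log2 ratio of clusters to rest was -0.56, -0.43 and -0.64 in Control, -0.65, -0.71 and -0.95 in CDK19KD, and -0.76, -0.96 and -1.07 in CDK8KD. Control did not overlap either knockdown group, and the knockdown groups overlapped each other. The group means were -0.54 ± 0.10, -0.77 ± 0.16 and -0.93 ± 0.16 (SD, n = 3). Of the variance, 65.3% lay between groups (exact permutation p = 0.0393, and 0.0278 with replicate numbers as blocks, the smallest that design allows), but the adjusted p over the 5 group tests was 0.196. Each knockdown against Control, a comparison that shares the Control libraries, had an exact p of 0.1, the smallest that 3 against 3 allows (log2 differences of -0.23 for CDK19KD and -0.39 for CDK8KD).

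Set beside each other, the mean covered share of the rest was 17.02% for Control and 17.1% for CDK19KD, while the mean share of the clusters was 11.6 and 9.96%. For CDK8KD the mean share of the rest was 21.1% and that of the clusters 11.0%. With the other chromosomes as the reference, a choice made after seeing the data, the groups held 7.06% of the variance (exact p = 0.821). Leaving out 1 library gave 56.6 to 77.6%, and the unadjusted call held only without CDK19KD replicate 3 (exact p = 0.0321) or without CDK8KD replicate 1 (exact p = 0.0393). The width ratio to the rest did not pass the test (30.9% of variance, exact p = 0.318), except without CDK19KD replicate 2 (75.2%, exact p = 0.0214).

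**Figure D5:**
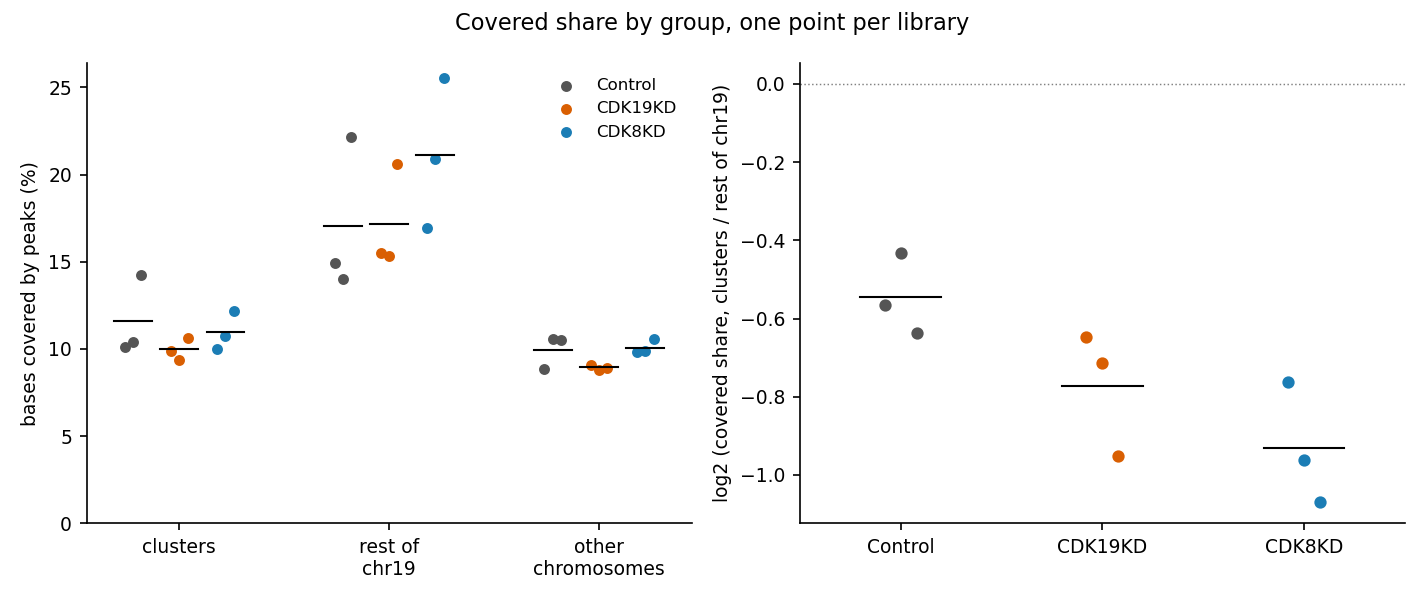
Percent of bases covered by peaks in the clusters, the rest of chromosome 19 and the other chromosomes (left), and the log2 ratio of the covered share of clusters to rest (right); each point is 1 library and each line a mean of 3. The groups overlap in the clusters, while in the log2 ratio Control, at -0.43 to -0.64, lies above both knockdown groups.

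At single positions, 317 windows of 10 kb in the clusters were tested with limma on their covered percent, in a fit over all 78056 windows. For CDK19KD against Control, 0 cluster windows passed (adjusted p under 0.05), where 0.0781% of all windows did, and 23 had an unadjusted p under 0.05 (7.26%, against 9.92% of all windows). For CDK8KD against Control, 0 passed (0.716% of all windows) and 12 had an unadjusted p under 0.05 (3.79% against 14.7%). For CDK19KD against CDK8KD, 0 passed (1.01% of all windows) and 11 had an unadjusted p under 0.05 (3.47% against 14.6%). The rest of chromosome 19 had 0, 14 and 15 called windows of 2170 in these comparisons; the 14 were higher in CDK8KD than in Control and the 15 lower in CDK19KD than in CDK8KD. The number called in the rest for CDK8KD against Control changed with the library left out. It was 0 without CDK8KD replicate 3, 8 without CDK8KD replicate 2 and 9 without CDK8KD replicate 1. Without Control replicate 2 or 3 it was 3 and 8, and without Control replicate 1 it was 22 higher and 2 lower. Without CDK19KD replicate 1, 2 or 3 it was 3, 3 and 4. Those libraries enter this comparison only through the shared estimate of spread and the choice of windows. A window needed a mean covered share of at least 5% over the libraries kept. All windows then numbered 78382, 78799 and 78514 in the same order. With replicate numbers as blocks 16 windows were called, and with shares scaled to equal totals 5. The 15 lower windows became 0 without CDK19KD replicate 2, 1 without CDK19KD replicate 3 or CDK8KD replicate 3, and 2 without CDK19KD replicate 1. They numbered 6 without CDK8KD replicate 2 and 11 without CDK8KD replicate 1. Without Control replicate 1, 2 or 3 they numbered 6, 4 and 15. With replicate numbers as blocks they numbered 17, and with scaled shares 5. The median window difference between CDK8KD and Control was -0.28 percentage points in the clusters and 7.25 in the rest, against 0.88 over all windows. Leaving out 1 library at a time, the cluster median ran from -1.39 (without Control replicate 1) to 1.26 (without Control replicate 3), so its sign turned. The median of the rest ran from 3.64 (without CDK8KD replicate 3) to 12.1 (without Control replicate 3).

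The cluster window with the smallest p was chr19:37960001-37970000 in 19q13.12. Its covered percent was 43.9, 38.6 and 49.1 in Control, 28.8, 21.8 and 29.8 in CDK19KD, and 19.99, 23.6 and 16.8 in CDK8KD. Control lay above both knockdown groups without overlap, yet the difference of CDK8KD to Control, -23.7 percentage points (SE 4.30), missed the threshold (limma adjusted p = 0.0634). In chr19:52580001-52590000 of 19q13.41 the values were 35.8, 50.3 and 29.0 in Control, 11.3, 8.89 and 3.66 in CDK19KD, and 30.0, 34.5 and 38.3 in CDK8KD. CDK19KD lay below both other groups without overlap (difference to Control -30.4, SE 5.76, limma adjusted p = 0.161). These 2 windows were picked for their p-values.

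Few cluster regions were held by every library of one group and by none of another. Of 19 cluster regions held by exactly 3 of the 6 Control and CDK19KD libraries, 0 had all 3 libraries in CDK19KD (10.3% of such regions over all chromosomes) and 2 had them in Control (7.25%). Of 20 for Control and CDK8KD, 2 were complete in CDK8KD (9.63%) and 1 in Control (6.2%). Of 21 for the 2 knockdown groups, 1 belonged to CDK19KD (15.9%) and 1 to CDK8KD (15%). At 0 to 2 regions each, these counts are too small to read a difference from the background.

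The region chr19:52582039-52585157 lay in the second window above and was held by Control and CDK8KD but not by CDK19KD. Peaks covered 466, 2320 and 633 bp of it in Control, 0 bp in each CDK19KD library, and 826, 1449 and 1483 bp in CDK8KD. Its −log10 p was 2.32 to 3.28, close to the lowest value in the lists, 2.001. The others were chr19:57975046-57978478 (Control, not CDK19KD), chr19:24173213-24175244 and chr19:23905679-23907926 (CDK8KD, not Control), chr19:21657730-21658798 (Control, not CDK8KD) and chr19:21315990-21317943 (CDK19KD, not CDK8KD). Their mean percentiles, like that of the first, lay between 20.8 and 38.6, so all were weak peaks.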

How the data were processed

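H3K27ac ChIP-seq peak lists of 9 libraries (3 each of Control, CDK19KD and CDK8KD) were used; the Input libraries were not analysed here. Per the submitters' processing notes, MACS2, deepTools and hg19 were used; versions, settings, the control library, the aligner and the handling of reads with several matches are not given in the sources used here. The deposited lists give for each peak a score, a fold enrichment ratio, and −log10 p and −log10 q, all as the authors' peak caller wrote them; p and q values served only to rank or filter peaks. The read depth is unknown.

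Peaks were placed by midpoint. The rest of chromosome 19 runs from the first to the last peak (60261 to 59119106), without the 4 intervals and without the longest peak-free stretch (24289609 to 27738337). Density, covered share, median width and strength were compared per library by exact sign-flip permutation tests, and groups by exact permutation of 280 arrangements, with Benjamini-Hochberg adjustment. Windows of 10 kb with a mean covered share of at least 5% were fitted with limma. The code was run on simulated windows with a planted shift larger than the differences given here. Those windows did not keep the correlation between same-numbered libraries. That run therefore cannot show how well the fit finds differences in these data. Peaks that overlap by 1 bp were joined into regions. Python 3.11.15, numpy 2.4.6, pandas 2.3.3, matplotlib 3.10.9, R 4.3.3 and limma 3.58.1 were used.

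Same-numbered libraries deviated together from their group means (9 pairs, correlations 0.138 to 0.611, mean 0.407). The main tests still took the libraries as separate, and the numbers served as blocks in further fits. This pairing comes from the correlations, not from the labels. Named regions were, per interval, the 3 widest and 2 strongest held by all libraries, the regions exclusive to a group, and the longest peak-free stretch. The intervals, lists and tests were chosen with earlier results of these data known. Width classes and the other-chromosome reference for group results were added after seeing the data.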

Additional observations from a re-analysis of the deposited data

Results flagged for a closer look

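The covered share of the clusters relative to the rest of chromosome 19 drew attention because the effect differed over the groups, before adjustment only. Of its variance, 65.3% lay between Control, CDK19KD and CDK8KD (exact permutation p = 0.0393, adjusted 0.196 over 5 tests). Control had a mean log2 ratio of -0.54, CDK19KD of -0.77 and CDK8KD of -0.93. Against the other chromosomes the groups held 7.06%.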

How the results depend on the processing

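Of 489 alternative values over 38 results, 395 kept their direction and side of the threshold (or, for counts, stayed within 1.5 times). In the others the cause was not tested. Some of the 395 could not change, so their number overstates how far the results were tested. Joining peaks left the log2 density ratio at -0.50, and the length of the rest enters neither width nor strength. Leaving out a library of a group not compared left exclusive-region counts as they were. Percentages of variance have no direction to turn. With replicate numbers as blocks, comparisons to the rest without a call could not gain one. With −log10 q of at least 5 and with the 20000 strongest peaks, in that order, the log2 ratio to the rest of chromosome 19 was -0.017 and 0.049 for density and -0.45 and -0.49 for width; in 19q13.12 it was -0.15 and -0.050 for density and -0.38 and -0.44 for width; in 19q13.41 it was 0.74 and 0.84 for density, 0.39 and 0.43 for share and -0.34 and -0.41 for width; in 19q13.43 it was 0.070 and 0.14 for share and -0.52 and -0.56 for width. The group variance of the relative share was 41.4 and 62.0%, and that of width 66.8 and 63.9%. Regions held by 9 libraries made up 61.0 and 69.3%, and by 1 library 0 and 4.91%. Against other chromosomes, density was at 0.28, share at 0.16, width at 0.31 and the group variance of the relative share at 7.06%.

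With the replicate block, differences were averaged per replicate number, and with 3 numbers the exact p cannot go below 0.25, so that fit can make no call. It left the values at -0.50 for density, -0.75 for share and 14.5 for strength; at -0.95, -1.35 and -0.13 in 19p12 and -0.75, -0.92 and 0.20 in 19q13.12 for density, share and width; at 0.22 for width in 19q13.41; at 0.20 and -0.17 for density and share in 19q13.43; and at 12.5 and 12.6 for the share and percentile of 3 to 6 kb peaks and -5.10 for the share of 10 kb or more. With the block, limma called 0 cluster windows in each comparison.

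Exclusive regions held by CDK19KD and not Control numbered 2 with the strongest peaks and 1 with 50% of the region covered. Those of Control and not CDK19KD numbered 0 under both strong-peak settings. Those of CDK8KD and not Control numbered 0, 0 and, with 50% covered, 1; of Control and not CDK8KD 0, 0 and 3; of CDK8KD and not CDK19KD 0, 0 and 0. Those of CDK19KD and not CDK8KD numbered 0 with −log10 q of at least 5 and 2 with 50% covered. Cluster windows called with the strongest peaks were, for CDK19KD against Control, 1 higher and 1 lower; for CDK8KD against Control, 1 lower (2 with −log10 q of at least 5); and for CDK19KD against CDK8KD, 1 higher.

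Leaving out 1 library at a time, the group variance ranged from 56.6 to 77.6% for the relative share and from 21.3 to 75.2% for the relative width. The width ratio of 19q13.43 ranged from -0.066 to 0.0036, above 0 without CDK19KD replicate 3. Exclusive regions ranged from 0 to 3 (CDK19KD, not Control), 2 to 10 (Control, not CDK19KD), 2 to 5 (CDK8KD, not Control), 1 to 7 (Control, not CDK8KD), 1 to 4 (CDK19KD, not CDK8KD) and 1 to 5 (CDK8KD, not CDK19KD); both counts of Control regions were highest without Control replicate 1. Windows lower in either knockdown than in Control numbered 0 to 2, with 2 without Control replicate 1. Without depth or the reads, how far list length follows sequencing depth is unknown.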
